A study of Mus musculus with 8 samples.

Results

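Genes that later tell the classes of cortical interneurons apart were examined, 8 in number, in open chromatin of the embryonic mouse forebrain: Sst, Npy, Vip and Cck, which encode neuropeptides, Pvalb, Calb1 and Calb2, which encode the calcium-binding proteins parvalbumin, calbindin and calretinin, and Reep1, which encodes a protein that shapes the tubular endoplasmic reticulum. They are 8 of 21911 protein-coding genes. For each gene the window was its annotated body (GRCm38) and the 10 kb upstream of it, and its members in the data were the merged open regions that overlap that window. There were 44 such regions of 292532 in all, and 16 of them had a peak in all 8 samples, of 68274 regions of that kind. The question was which of these genes are already open in which ganglionic eminence. The genes were listed by their adult roles, with earlier results of these data known.

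Accessibility was measured by droplet-based single-nucleus ATAC-seq, in which a transposase cuts DNA that is not covered by nucleosomes, in wild-type embryos with no transgene or treatment. Each of 4 dissected regions had 2 samples: cortex (CTX) and the ganglionic eminences, which were the medial (MGE), the lateral (LGE) and the caudal (CGE) eminence. All samples were labelled E12.5 (embryonic day) except CTX replicate 2, labelled E14.5, so that age and replicate cannot be told apart within CTX. The labels do not say whether the 2 samples of a region came from separate embryos, and p-values then measure only the spread between these samples.

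Cortical interneurons are born in the eminences and migrate tangentially into the cortex. The MGE is known as the source of most Sst and Pvalb interneurons, and the CGE of most Vip and many Calb2 and Cck interneurons, while the LGE gives rise mainly to striatal and olfactory bulb neurons. Npy marks subsets from both MGE and CGE. Pvalb and Vip appear mostly after migration, later than the ages sampled here. Sst and Npy begin earlier, in postmitotic interneurons, calbindin already marks migrating MGE-derived interneurons in the embryo, and calretinin marks Cajal-Retzius cells of the embryonic cortex. Cck and Calb1 are also expressed in cortical pyramidal cells. An open promoter or enhancer can precede transcription and is not a measure of it.

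The libraries held 3465 to 6845 nuclei and 77387940 to 138873845 counts each, 39253 nuclei in all. The region labels were met by their markers: Nkx2-1, Lhx6 and Lhx8 lay at 324 to 473, 212 to 241 and 108 to 122 CPM (the usual depth-normalised count, relative to all gene-window counts of the sample and TMM-scaled) in MGE against at most 76.5, 59.3 and 65.8 elsewhere, and Emx1 at 155 and 170 in CTX against at most 53.0. Pairs of libraries shared 15 to 56 barcodes, at most 1.17% of the smaller library. Replicates 1 and 2 differed in a technical measure, with 9.54% to 10.4% odd counts in the replicate 1 libraries and 5.17% to 5.85% in the replicate 2 libraries. Replicate 1 also held more window CPM than replicate 2 in all 4 dissected regions for 6 of the 8 genes, Vip and Calb1 being the exceptions. Fits with a term for replicate number, which changed some calls, are given in the closing section. What lies behind the split was not tested. The CTX libraries differed in their cells. Replicate 1, labelled E12.5, had 95.9% glutamatergic neuron-like nuclei (classes below), but a finer clustering named 3140 of its 4108 nuclei glutamatergic neuron-like and 800 progenitor-like. Replicate 2, labelled E14.5, had 11% glutamatergic neuron-like nuclei and 82.9% unnamed ones. Of the fixed markers, 7 of 8 glutamatergic ones were higher in replicate 1 (Neurod2 at 213 and 68.5 CPM without TMM scaling in replicates 1 and 2, Bhlhe22 the exception at 73.7 and 85.0). Of the progenitor markers 7 of 9 were higher in replicate 2 (Hes1 at 116 and 208), Slc1a3 at 141 and 86.2 and Fabp7 at 56.8 and 51.3 being the exceptions, and all 8 GABAergic neuron markers were higher in replicate 2. The library labelled as the younger thus held more of most glutamatergic markers, and age, cell makeup and library cannot be told apart in CTX. Peaks were called in each sample separately and counts exist only inside a sample's own peaks, so a value of 0 means that no peak was called there and not that openness was measured as absent.

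The sequences below were chosen for the reasons given with each set. The first 5 are the 250 bases before a RefSeq transcription start (GRCm38.p6), written 5′ to 3′ on the gene's strand, shown because they are the promoters of the 4 peptide genes and of the Pvalb start that was open. Capitals mark matches, on either strand, to 6 motifs: the cyclic AMP response element (CRE, TGACGTCA), its core alone (TGACG), the TATA box (TATAAA), the E-box (CANNTG), a homeodomain core (TAATTA) and the CCAAT box (CCAAT). The core lies within the full CRE, so every full match holds core matches too. Of the 8 genes 6 had an entry. No promoter was printed for Calb1 and Calb2.
Sst promoter, chr16:23890845-23891094, minus strand: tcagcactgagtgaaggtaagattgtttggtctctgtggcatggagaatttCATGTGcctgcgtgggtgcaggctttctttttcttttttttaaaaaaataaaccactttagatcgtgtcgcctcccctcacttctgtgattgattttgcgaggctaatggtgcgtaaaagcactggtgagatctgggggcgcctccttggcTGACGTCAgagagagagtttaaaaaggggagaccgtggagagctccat
Npy promoter, chr6:49822460-49822709, plus strand: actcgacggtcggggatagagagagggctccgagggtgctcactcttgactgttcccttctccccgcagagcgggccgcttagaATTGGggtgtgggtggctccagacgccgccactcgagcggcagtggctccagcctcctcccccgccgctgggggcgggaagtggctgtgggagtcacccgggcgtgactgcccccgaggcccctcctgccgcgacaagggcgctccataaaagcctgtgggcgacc
Vip promoter, chr10:5638968-5639217, plus strand: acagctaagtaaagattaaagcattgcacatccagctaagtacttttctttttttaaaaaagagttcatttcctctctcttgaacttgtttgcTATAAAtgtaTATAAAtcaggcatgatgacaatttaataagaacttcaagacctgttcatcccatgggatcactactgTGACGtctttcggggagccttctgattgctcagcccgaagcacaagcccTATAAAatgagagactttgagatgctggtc
Cck promoter, chr9:121495695-121495944, minus strand: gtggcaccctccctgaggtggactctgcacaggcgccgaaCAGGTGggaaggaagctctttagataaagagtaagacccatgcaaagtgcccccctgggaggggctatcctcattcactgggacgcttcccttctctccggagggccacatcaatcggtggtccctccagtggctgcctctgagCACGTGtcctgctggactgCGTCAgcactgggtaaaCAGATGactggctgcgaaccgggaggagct
Pvalb promoter, second RefSeq start, chr15:78204238-78204487, minus strand: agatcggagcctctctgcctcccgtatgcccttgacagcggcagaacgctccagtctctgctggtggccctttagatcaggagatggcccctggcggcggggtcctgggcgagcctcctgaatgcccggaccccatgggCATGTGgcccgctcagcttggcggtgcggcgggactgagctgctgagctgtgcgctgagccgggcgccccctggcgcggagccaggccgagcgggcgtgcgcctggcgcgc

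Sst alone among these held the full CRE, which starts at position -48 counted from the RefSeq start. That element was found in 1.79% of the 32851 RefSeq promoters of 300 bases (250 before the start and 50 after it). The core alone lay at -79 in Vip and at -47 in Cck, and 20.8% of all promoters held one. Vip held TATA boxes at -157, -147 and -30, a motif found in 13.6% of promoters. Npy held a CCAAT box at -166 (37.4% of promoters). Cck held E-boxes at -210, -66 and -30, Sst at -199 and the second Pvalb promoter at -111, as did 72.3% of all promoters at some position. The homeodomain core, present in 5.29% of promoters, was found in the promoter of none of these 6 genes. A match describes the letters and not a bound site.

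The other 3 sequences are the central 300 bases of merged regions away from a start site, on the plus strand. They are shown because the first carried most of the Sst counts and the other two were regions high in both MGE samples relative to LGE and CGE. The choice of these regions was made after their values were seen.
Sst upstream region, chr16:23898779-23899078: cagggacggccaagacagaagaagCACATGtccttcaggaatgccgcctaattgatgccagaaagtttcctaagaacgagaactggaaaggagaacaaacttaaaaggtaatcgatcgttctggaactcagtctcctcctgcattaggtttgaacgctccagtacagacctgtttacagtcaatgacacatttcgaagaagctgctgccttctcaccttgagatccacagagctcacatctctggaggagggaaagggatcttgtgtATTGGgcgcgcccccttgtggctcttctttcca
Npy upstream region, chr6:49813761-49814060: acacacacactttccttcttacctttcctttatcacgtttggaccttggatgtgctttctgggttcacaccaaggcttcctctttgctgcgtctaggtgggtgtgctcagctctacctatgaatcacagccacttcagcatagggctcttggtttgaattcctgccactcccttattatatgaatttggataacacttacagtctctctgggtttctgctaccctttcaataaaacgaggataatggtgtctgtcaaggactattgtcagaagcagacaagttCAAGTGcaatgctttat
Reep1 intronic region, chr6:71753001-71753300: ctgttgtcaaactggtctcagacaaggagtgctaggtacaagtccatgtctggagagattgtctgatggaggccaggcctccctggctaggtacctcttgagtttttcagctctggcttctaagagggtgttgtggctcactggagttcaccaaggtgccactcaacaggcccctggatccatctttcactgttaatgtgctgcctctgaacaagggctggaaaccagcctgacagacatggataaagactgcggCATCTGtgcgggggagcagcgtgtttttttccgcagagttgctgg

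Each of the 3 held 1 E-box, which 78.1% of the central 300 bases of the 68274 shared regions also held. The Sst upstream sequence held a CCAAT box in addition (31.7% of those regions). None held the homeodomain core (9.79%) or the CRE (0.589%).

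Of the 8 genes 7 had an open region in all 8 samples at E12.5 or E14.5, and Vip had none. Regions are numbered along the chromosome within each gene. Of the 44 regions 7 covered the gene's outermost annotated start site, 1 covered another start site, 5 touched other exons, 24 lay in introns and 7 lay upstream. Of these regions 36.4% had a peak in all 8 samples, against 23.3% of all merged regions. The number of regions with a peak ran from 18 in MGE replicate 1 to 33 in CTX replicate 1, which had 105456 and 181339 peaks over the genome, and 7 of the 13 regions found in a single sample were found in CTX replicate 1. No member shared a region with another protein-coding gene.

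**Figure D1:**
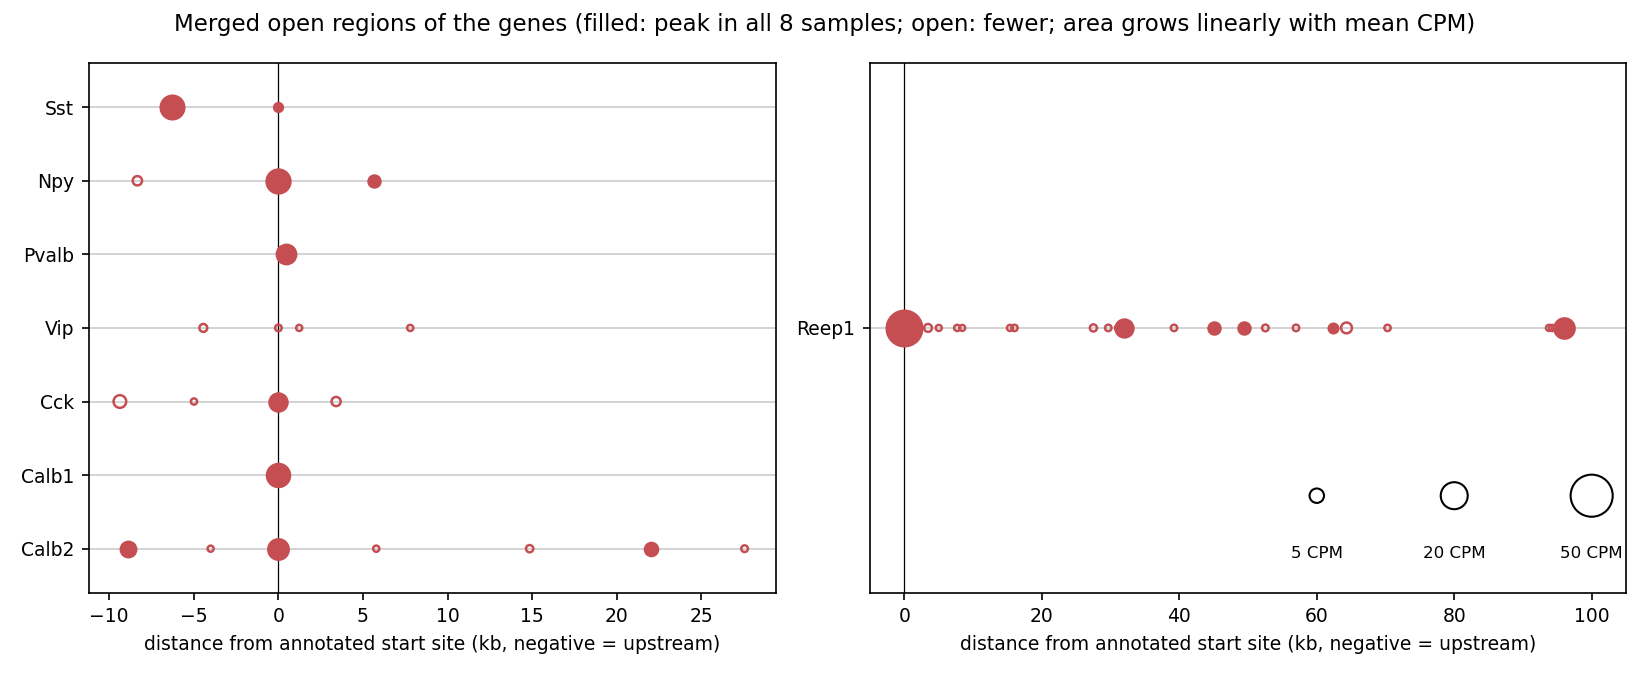
Position of the 44 merged regions relative to each gene's annotated start site (horizontal axis, kb, negative upstream), 1 line per gene with Reep1 on its own axis. Circle area grows with the mean CPM over 8 samples, and filled circles had a peak in all 8 samples: the largest Sst circle lies upstream of the gene and not at its start, and Vip has no filled circle.

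Per kilobase of window, averaged over the 8 samples, Sst had the highest mean level of the 8, at 1.30 CPM per kb, which placed it at percentile 68.5 of all 21911 genes. Npy followed at 1.08 (percentile 63.0) and Cck at 0.775 (percentile 53.4). Reep1 lay at 0.543 (percentile 44.2), Calb2 at 0.485 (percentile 41.8), and Pvalb and Calb1 both at 0.352 (percentiles 35.9 and 36.0). Vip was lowest, at 0.0619 CPM per kb and percentile 22.5. The median gene had 0.684, and 15.4% of genes had no count in any sample. Over the 6 eminence samples alone, a mean added after the values were seen, only Sst at 1.21 and Npy at 1.17 lay above the median gene, at 0.672. Cck lay below it there, at 0.564, and also over the 7 samples other than CTX replicate 1, at 0.576 against a median of 0.674. In the 2 MGE samples Npy lay above Sst, at 1.52 and 1.04. The order also differed per kilobase covered by a sample's own peaks, where Reep1 was highest of the 8 in 5 samples, Calb1 in 2 (9.18 CPM per covered kb in CTX replicate 2) and Sst in 1 (8.36 in CGE replicate 1).

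Among the eminences no window of the 8 genes and none of their 16 regions with a peak in all samples was called. Where regions with a peak in at least 2 samples were tested, 1 more region, Cck region 4, was called, with MGE entered as 0 for want of a peak. The share of all such regions that were called is not given here. With edgeR's quasi-likelihood test and Benjamini-Hochberg adjustment over all gene windows, MGE against LGE called 0 of the 8 genes, against 0.0393% of 17822 windows. MGE against CGE called 0 of 8 against 0.118%, and LGE against CGE 0 of 8 against 0%. At an unadjusted p under 0.05 the same test gave 1 gene (Npy) for MGE against LGE where 9.91% of windows passed, 1 gene (Npy) for MGE against CGE where 10.9% passed, and 0 for LGE against CGE where 3.84% passed. DESeq2 called 0 of 8 in each of the 3 contrasts, where it called 3.61%, 3.69% and 0.488% of windows. The median log2 fold over the 8 genes was -0.01, -0.22 and -0.13 in the 3 contrasts, beside -0.01, 0.00 and 0.00 over all windows tested.

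For CTX against the mean of the 3 eminences the test again called 0 of 8 genes, against 5.93% of 18051 windows. Unadjusted, 3 genes (Npy, Cck and Reep1) had a p under 0.05, against 19.6% of windows. DESeq2 called the same 3, with Cck and Reep1 higher and Npy lower in CTX, against 15.8% of windows. The median log2 fold was 0.30 over the 8 genes and -0.02 over all windows.

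**Figure D2:**
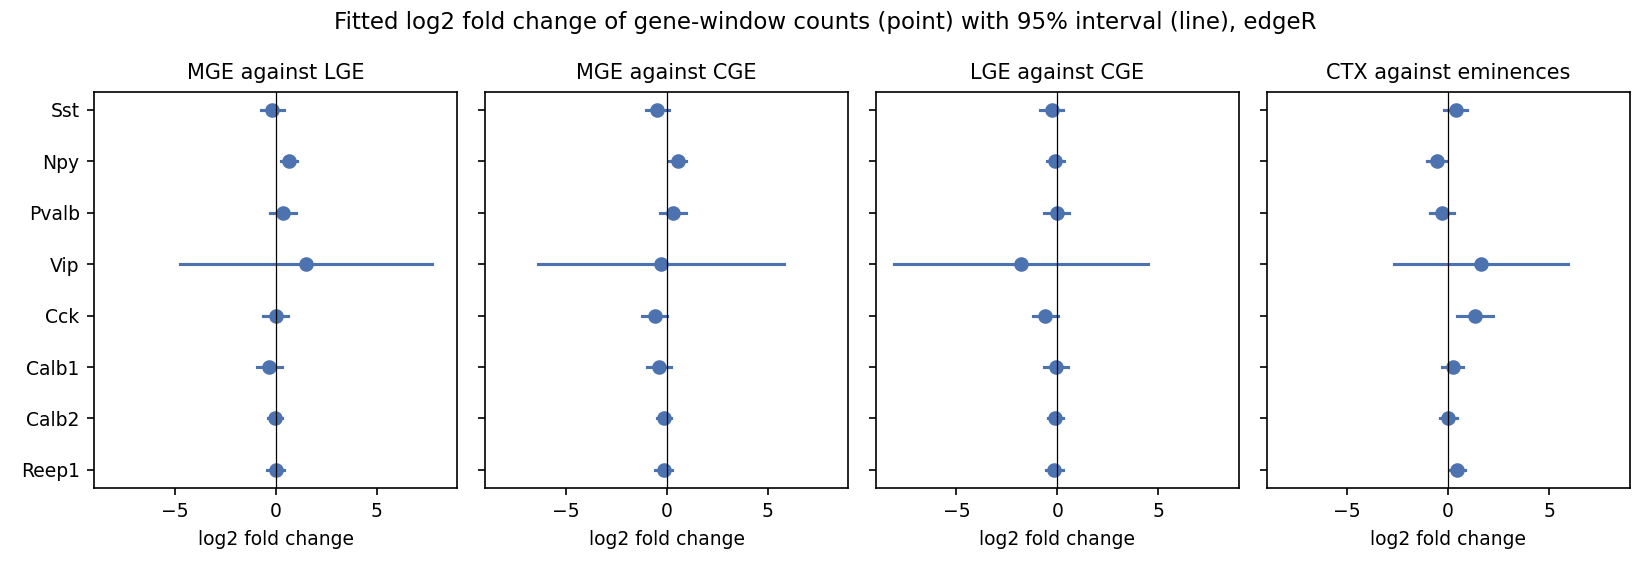
Fitted log2 fold change (point) of the counts in each gene's window with its 95% interval (line) from edgeR, 1 panel per contrast, with positive values where the first-named region is higher. Npy lies above 0 in both MGE panels and Cck and Reep1 lie above 0 in CTX, while the Vip intervals span several log2 units in every panel.

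Window counts per sample below are on the same CPM scale. Summed over nuclei, fewer open nuclei and less openness per nucleus cannot be told apart.

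**Figure D3:**
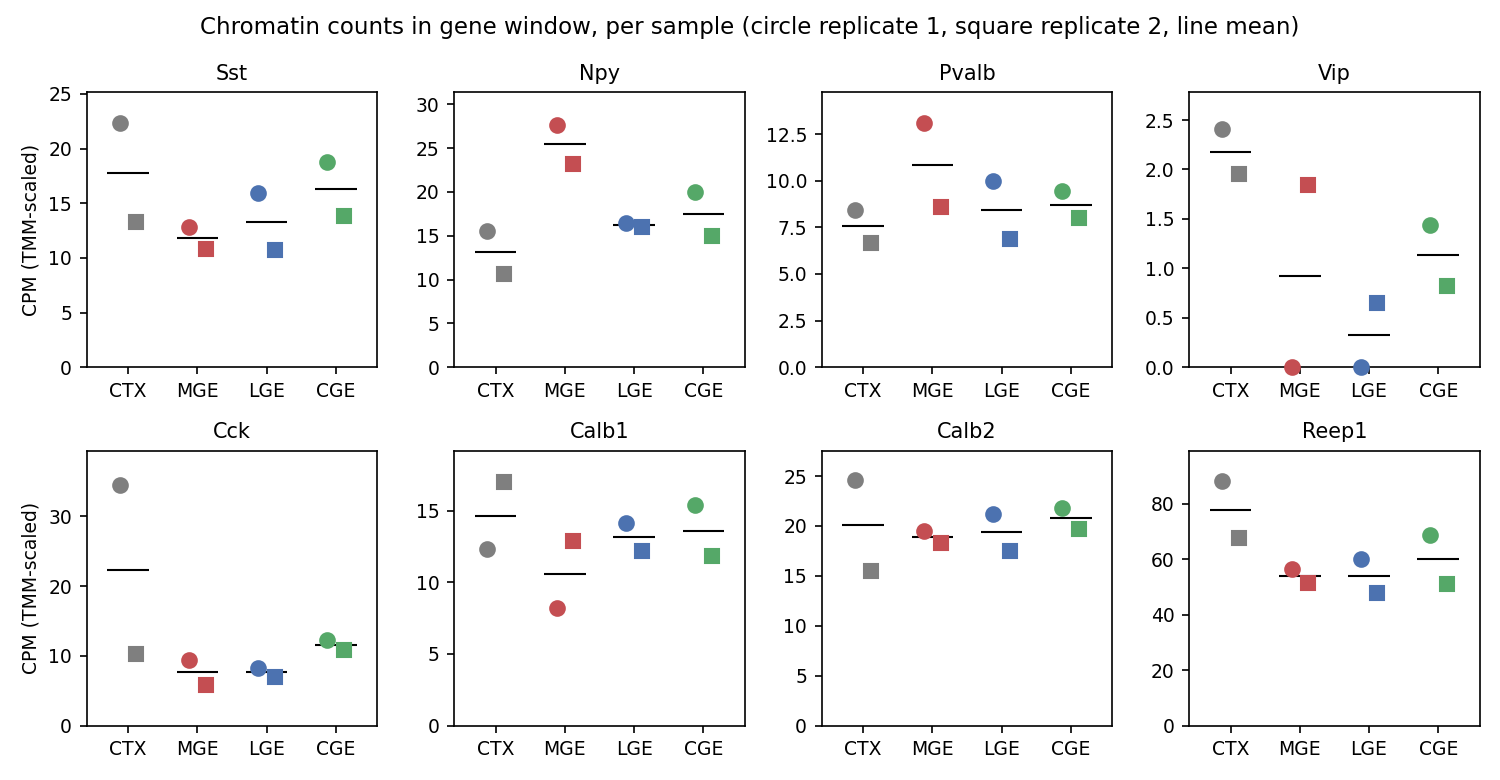
Counts in each gene's window (vertical axis, CPM with TMM scaling, from 0) for the 2 samples of each region, with a line at the mean. Npy is higher in both MGE samples than in the other 6, and the 2 CTX samples of Cck, which differ in age, lie at 34.4 and 10.3.

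Npy, neuropeptide Y, an inhibitory peptide of several interneuron subsets, was the 1 gene with an unadjusted p under 0.05 among the eminences. Its window held 27.7 and 23.2 CPM in MGE, 16.4 and 16.0 in LGE, 20 and 15.0 in CGE, and 15.6 and 10.6 in CTX (replicates 1 and 2). Both MGE samples were higher than the other 6, with no overlap. How many of all windows or regions show such a lack of overlap, here or below, was not computed. The log2 fold was 0.65 for MGE against LGE (SE 0.18, 95% interval 0.23 to 1.07, edgeR adjusted p = 0.262) and 0.54 for MGE against CGE (SE 0.18, interval 0.12 to 0.96, adjusted p = 0.338). For CTX it was -0.57 (SE 0.20, interval -1.03 to -0.12, adjusted p = 0.154; DESeq2 adjusted p = 0.0377). None passed edgeR's threshold over all windows. The CTX fold was -0.86 without CTX replicate 1 (edgeR adjusted p = 0.0615) and -0.31 without CTX replicate 2 (0.399), the single CTX sample being assumed to vary like the other groups. With an offset for the length each sample's own peaks cover, the 2 MGE folds were 0.09 and 0.28, the mean covered length in the window being 4.4 kb in MGE and 3.09 and 3.68 kb in LGE and CGE.

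The extra covered length in MGE included Npy region 1 (chr6:49813449-49814373), 8.34 kb upstream of the start, whose central sequence is printed above. Region CPM here and below is TMM-scaled like window CPM, but relative to all counts in the 68274 shared regions. Region 1 held 3.81 and 4.13 CPM in MGE, no peak and 1.65 in LGE, and 0.782 and 1.57 in CGE, and no peak was called in either CTX sample. MGE was thus highest in both samples with no overlap, but with peaks in 5 of 8 samples the region was tested only among regions with a peak in at least 2 samples. There it was not called (MGE against LGE, edgeR adjusted p = 0.613, and against CGE, 0.774). Region 2, over the start site, held 23.8 and 16.4 CPM in MGE, 13.7 and 13.3 in LGE, 15.9 and 13.8 in CGE, and 16.1 and 9.52 in CTX. Both MGE samples were highest there too, the lower of them by less than 1 CPM. For region 2 the log2 fold of MGE against LGE was 0.57 (SE 0.22, interval 0.06 to 1.08, edgeR adjusted p = 0.162, and 0.0327 without MGE replicate 2, the remaining MGE sample being assumed to vary like the other groups) and 0.14 with the covered-length offset. Region 3, over the last exon, ran from 0.924 CPM in CTX replicate 1 to 5.86 in MGE replicate 2, and MGE replicate 1 at 3.57 was close to LGE at 3.50 and 3.39 and to CGE replicate 1 at 3.52.

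**Figure D4:**
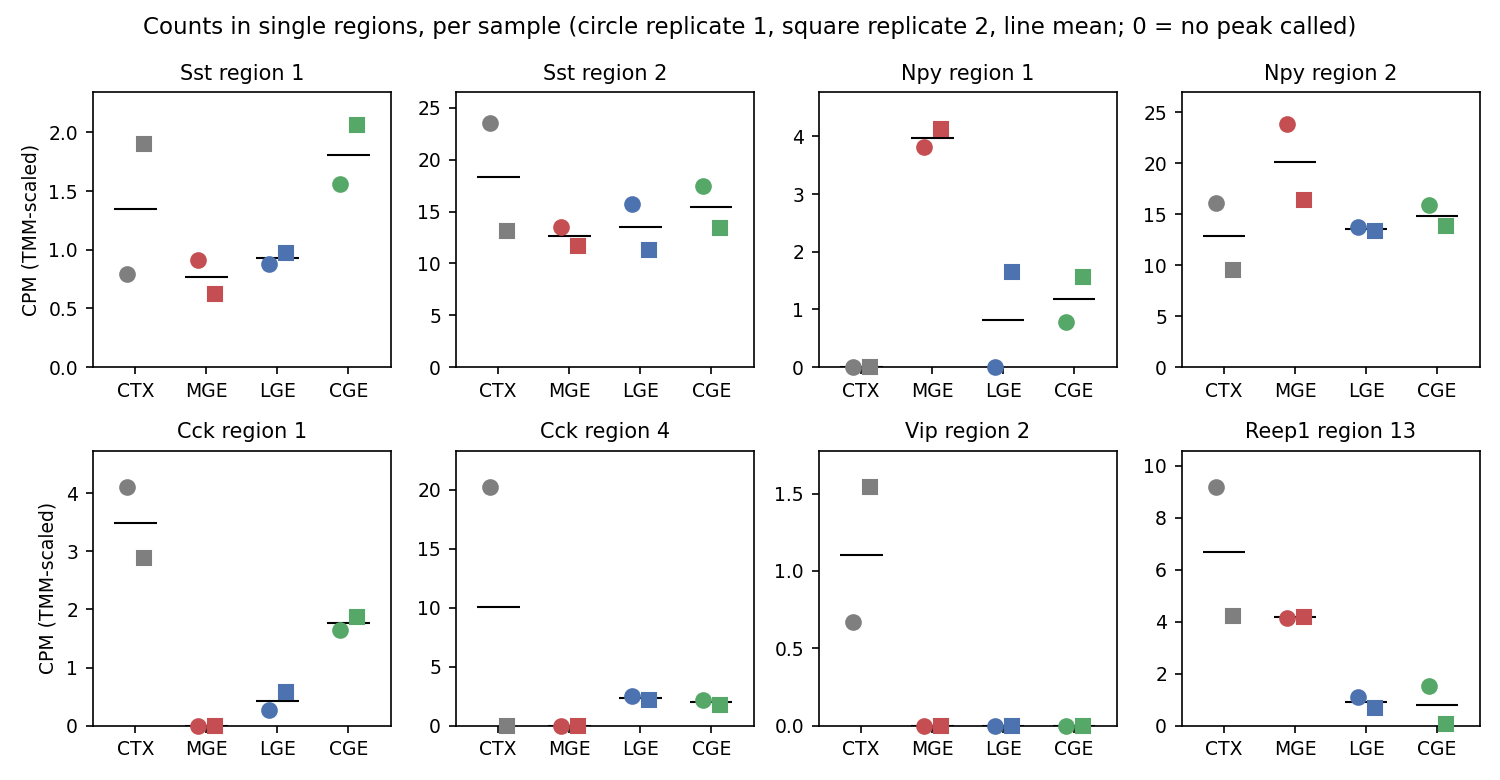
Counts in 8 single regions (vertical axis, CPM with TMM scaling, from 0) for the 2 samples of each region of the forebrain, with a line at the mean and 0 where no peak was called. Npy region 1 and Reep1 region 13 are high in both MGE samples, Cck regions 1 and 4 have no MGE peak, and Vip region 2 has a peak only in CTX.

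Sst, somatostatin, the peptide of dendrite-targeting interneurons, had 2 open regions, both in all 8 samples, and the MGE was not the eminence with most counts. The window held 12.8 and 10.8 CPM in MGE, 15.9 and 10.7 in LGE, 18.8 and 13.8 in CGE, and 22.3 and 13.3 in CTX. The 2 MGE samples lay below both CGE samples and overlapped LGE. The log2 fold of MGE against CGE was -0.46 (SE 0.24, 95% interval -1.03 to 0.11, adjusted p = 0.523) and of MGE against LGE -0.17 (SE 0.24, interval -0.73 to 0.40, adjusted p = 0.849). An MGE excess over CGE of more than 0.11 on the log2 scale therefore lay outside the interval.

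Between 86.7% and 96.7% of the Sst counts came from region 2 (chr16:23897251-23900606), 6.29 kb upstream. It held 13.5 and 11.7 CPM in MGE, 15.7 and 11.3 in LGE, 17.5 and 13.4 in CGE, and 23.5 and 13.1 in CTX, where replicate 1 stood above all other samples. Region 1 (chr16:23890163-23891174), over the start site and the CRE, was weak throughout. It held 0.912 and 0.621 CPM in MGE, 0.883 and 0.975 in LGE, 1.56 and 2.06 in CGE, and 0.792 and 1.90 in CTX. Both CGE samples lay above all MGE and LGE samples. The log2 fold of MGE against CGE in region 1 was -1.23 (SE 0.48, interval -2.33 to -0.14, edgeR adjusted p = 0.162), and -0.13 with the covered-length offset.

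Pvalb, the late marker of fast-spiking interneurons, had a single open region (chr15:78203731-78205922). It did not reach the outermost annotated start but began 478 bp inside the gene, over a second start whose promoter is printed above. The window held 13.1 and 8.58 CPM in MGE, 9.99 and 6.90 in LGE, 9.44 and 7.99 in CGE, and 8.44 and 6.66 in CTX. MGE replicate 1 stood highest and MGE replicate 2 fell within the range of the other eminence samples. The log2 fold of MGE was 0.36 over LGE (SE 0.28, interval -0.29 to 1.00, adjusted p = 0.708) and 0.32 over CGE (SE 0.28, interval -0.33 to 0.96, adjusted p = 0.662), so neither passed the threshold. Within the replicate 1 samples alone MGE lay at 13.1 against 9.99 and 9.44, and within the replicate 2 samples at 8.58 against 6.90 and 7.99. Pairing by replicate number was not shown, so this order is a description only, and no other gene was set out in this way.

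Vip, vasoactive intestinal peptide, was the least open of the 8. Its window held 2.41 and 1.95 CPM in CTX, no peak and 1.84 in MGE, no peak and 0.645 in LGE, and 1.44 and 0.821 in CGE. CTX was highest in both samples and the eminences overlapped. None of its 4 regions had a peak in all samples. Region 2 (chr10:5639081-5639517), over the start site and part of the printed promoter, had a peak only in the 2 CTX samples, at 0.669 and 1.54 CPM. Within classes of CTX nuclei (named below), region 2 held 3.61 and 4.96 CPM in endothelial-like nuclei, on 6 and 18 counts. Glutamatergic neuron-like nuclei held 0.533 and 0.459 there, on 65 and 3 counts, and the unnamed nuclei of replicate 2 held 1.25, on 95. Region 1, 4.44 kb upstream, was found in 6 samples at 0.663 to 1.46 CPM, both CGE samples among them. The fitted log2 folds had SEs of 1.87 to 2.70 and 95% intervals over 8 log2 units wide, from -2.69 to 5.95 for CTX, too wide for a comparison. Samples without a called Vip peak entered these fits as 0, and MGE and LGE replicate 1, the 2 of that kind, had more counts in all than 5 of the other libraries but the fewest peaks, 105456 and 103633 against 142292 to 182638.

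Cck, cholecystokinin, a peptide of basket interneurons and of pyramidal cells, had the lowest p for cortex against eminences. Its window held 34.4 and 10.3 CPM in CTX, 9.41 and 5.83 in MGE, 8.30 and 7.02 in LGE, and 12.3 and 10.9 in CGE. CTX replicate 1 stood above the rest and CTX replicate 2 lay below both CGE samples. The log2 fold of CTX over the eminences was 1.34 (SE 0.38, 95% interval 0.46 to 2.22, edgeR adjusted p = 0.0883; DESeq2 adjusted p = 0.00317). It was 1.97 without CTX replicate 2 (edgeR adjusted p = 0.00211), with the single CTX sample assumed to vary like the other groups, 0.23 without CTX replicate 1 (0.771) in the same way, and 0.30 with the covered-length offset, the mean covered length being 4.87 kb in CTX and 1.99 to 3.78 kb in the eminences. CGE lay above MGE and LGE in both samples, with log2 folds of -0.60 for MGE against CGE (SE 0.26, interval -1.21 to 0.01, adjusted p = 0.464) and -0.59 for LGE against CGE (SE 0.26, interval -1.20 to 0.02, adjusted p = 1.00). Both turned direction with the covered-length offset, to 0.30 and 0.23.

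Of the Cck regions, 1 and 4 had a peak in other eminences but no peak in either MGE sample. Region 1 (chr9:121490848-121492282), in an intron, held 4.10 and 2.88 CPM in CTX, 1.65 and 1.87 in CGE, and 0.270 and 0.577 in LGE. These 3 groups did not overlap. Region 4 (chr9:121505065-121507449), 9.37 kb upstream, held 20.2 CPM in CTX replicate 1 and no peak in CTX replicate 2, with 2.54 and 2.21 in LGE and 2.21 and 1.78 in CGE. It supplied up to 53.8% of the gene's counts in a sample. Among regions with a peak in at least 2 samples, where a sample without a peak enters as 0, region 4 was called lower in MGE than in LGE (edgeR adjusted p = 0.0305) and CGE (0.0374). Both MGE values were such zeros, so this call restates the missing peaks and is no measure of lower openness in MGE. Region 1 was not called in these contrasts (0.0960 and 0.0892), but was called higher in CTX than in the eminences (0.0252), with MGE again entered as 0. Region 2, over the start site and the printed promoter, was open in all samples, with 10.6 and 6.63 CPM in MGE, 5.86 and 5.29 in LGE, 8.56 and 8.55 in CGE, and 12.3 and 8.77 in CTX. At the start site MGE was thus above LGE in both samples (log2 fold 0.62, SE 0.27, interval 0.01 to 1.24, edgeR adjusted p = 0.201, and 0.0334 without MGE replicate 2, the remaining MGE sample being assumed to vary like the other groups), and the fold was -0.02 with the covered-length offset. The gene's MGE sum lacked the distal regions.

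Calb1, which encodes the calcium buffer calbindin, had a single open region, over its start site (chr4:15880635-15882707). The window held 8.20 and 12.9 CPM in MGE, 14.1 and 12.2 in LGE, 15.4 and 11.8 in CGE, and 12.3 and 17.0 in CTX. MGE replicate 1 was lowest and the groups overlapped. All 4 log2 folds lay between -0.37 and 0.23, and their 95% intervals stayed between -0.96 and 0.76.

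Calb2, which encodes the calcium buffer calretinin, had even levels among the eminences. The window held 19.5 and 18.3 CPM in MGE, 21.2 and 17.5 in LGE, 21.8 and 19.7 in CGE, and 24.6 and 15.5 in CTX. The 6 eminence samples spanned 17.5 to 21.8. All log2 folds lay between -0.14 and 0.01, and the intervals among the eminences stayed between -0.50 and 0.32. With the covered-length offset the folds among the eminences were 0.18, 0.43 and 0.26. The start-site region, region 5 (chr8:110167670-110169315), held 10.2 to 12.2 CPM in every sample. Region 7, 8.89 kb upstream, ran from 3.30 in CTX replicate 2 to 7.77 in MGE replicate 1, and region 2, over an exon, from 2.71 to 4.91. The remaining 4 regions had peaks in 1 to 5 samples and at most 2.35 CPM.

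Reep1 had 22 of the 44 regions in a window of 113 kb, and 6 of them were open in all samples. The annotated loci Gm44769 and Gm44770 lie within its window. The window held 56.6 and 51.3 CPM in MGE, 60 and 47.9 in LGE, 68.9 and 51.2 in CGE, and 88.2 and 67.7 in CTX. CTX replicate 1 stood above all eminence samples and CTX replicate 2 lay just under CGE replicate 1. The log2 fold of CTX was 0.46 (SE 0.16, 95% interval 0.10 to 0.83, edgeR adjusted p = 0.149; DESeq2 adjusted p = 0.0204) and -0.15 with the covered-length offset, the mean covered length being 10.7 kb in CTX and 5.53 to 9.05 kb in the eminences. It was 0.27 without CTX replicate 1 (edgeR adjusted p = 0.543) and 0.66 without CTX replicate 2 (0.061), the single CTX sample being assumed to vary like the other groups. Among the eminences the folds lay between -0.15 and 0.00, with intervals from -0.57 to 0.42, and with the offset at -0.33, 0.23 and 0.56.

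The Reep1 start site itself was even. Region 1 (chr6:71706953-71709655) held 39.6 and 33.8 CPM in MGE, 38.1 and 37.3 in LGE, 34.1 and 33.6 in CGE, and 34.3 and 31.6 in CTX, and its log2 folds lay between -0.13 and 0.16. The differences lay in introns. Region 11 (chr6:71739476-71741760), 31.9 kb inside the gene, held 8.47 and 20.4 CPM in CTX, 4.89 and 4.49 in MGE, 5.62 and 3.91 in LGE, and 11 and 6.69 in CGE. CTX replicate 2 was highest, and both CGE samples lay above MGE and LGE. For CTX its log2 fold was 1.31 (SE 0.36, interval 0.46 to 2.15, edgeR adjusted p = 0.0527; DESeq2 adjusted p = 0.00742), and for MGE against CGE it was -0.91 (SE 0.30, interval -1.62 to -0.21, adjusted p = 0.111), which turned to 0.35 with the covered-length offset. Without CTX replicate 1 the CTX fold of region 11 was 1.83 and without CTX replicate 2 it was 0.54. Region 17, 62.4 kb inside, held 1.66 and 4.66 CPM in CTX and 0.673 to 1.39 in the eminences (log2 fold 1.53, SE 0.42, interval 0.54 to 2.53, edgeR adjusted p = 0.0532; DESeq2 adjusted p = 0.0244). Its fold was 2.12 without CTX replicate 1 (edgeR adjusted p = 0.00545, with the single CTX sample assumed to vary like the other groups) and 0.61 without CTX replicate 2 (0.395).

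Reep1 region 13 (chr6:71752533-71753768), 45.0 kb inside the gene, had no called difference among the eminences. It held 4.14 and 4.19 CPM in MGE, 1.12 and 0.686 in LGE, 1.52 and 0.0506 in CGE, and 9.17 and 4.23 in CTX. Both MGE samples lay above all 4 LGE and CGE samples. The log2 fold was 2.18 over LGE (SE 1.02, interval -0.18 to 4.55, adjusted p = 0.246) and 2.41 over CGE (SE 1.04, interval 0.01 to 4.80, adjusted p = 0.208). Without CGE replicate 1 the fold was 2.23 over LGE (edgeR adjusted p = 0.0215) and 6.35 over CGE. The latter rested on a single CGE sample, at 0.0506 CPM, assumed to vary like the other groups. Without CGE replicate 2 the fold over LGE was 2.18 (edgeR adjusted p = 0.0202). With the covered-length offset the folds were 0.57 and 0.86. Region 18, 64.3 kb inside, had no MGE peak and ranged from 0.506 to 1.84 CPM in LGE and CGE. It held 13.4 in CTX replicate 1 and 0.915 in CTX replicate 2, and as at Cck region 4 CTX replicate 1 stood above the rest. The intronic regions 13, 17 and 18, like the Npy, Cck and Vip regions away from a tested start, were singled out after their values were seen.

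Over the 16 tested regions of the 8 genes none was called. The edgeR test called 10.6% of the 68274 shared regions for MGE against LGE, 9.40% for MGE against CGE, 0.00293% for LGE against CGE and 14.9% for CTX against the eminences. At an unadjusted p under 0.05 it gave 2, 3, 1 and 3 of the 16 regions, against 24.2%, 23.8%, 12.1% and 28.3% of all. DESeq2 called 0, 0, 0 and 2 of the 16 (Reep1 regions 11 and 17), against 16.7%, 16.0%, 4.03% and 23.1% of all. The median log2 fold over the 16 regions was 0.04, -0.19, -0.07 and 0.28, beside -0.01, 0.00, 0.01 and 0.03 over all shared regions.

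The share of nuclei with a count was compared after each nucleus was thinned to 5000 counts, with shallower nuclei left out. For shares, 95% intervals are by the exact Clopper-Pearson method, which covers counting error alone. Npy was the only 1 of the 8 genes whose share was higher in both MGE samples than in all 4 LGE and CGE samples. How many of all genes meet that rule was not computed. It was open in 10.7% and 8.90% of MGE nuclei, 6.41% and 6.33% of LGE, 7.61% and 6.08% of CGE, and 5.19% and 3.84% of CTX nuclei. Unthinned, the MGE shares were 20.6% (interval 19.6% to 21.5%) and 20% (18.7% to 21.4%), and the CGE and LGE shares 12.4% to 17.1%. The few endothelial-like nuclei of MGE, 57 and 31 after thinning, gave 9.01% and 12.1% for the Npy window, against 0% to 4.24% in those of LGE and CGE. The MGE shares of the whole window are therefore not read as above those of a cell type that should lack the gene. Their median depths were 32284.5 and 22013.0 counts before thinning, against 14700.0 and 17256.0 over all nuclei.

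Reep1 was open in the largest share, 18.9% to 27.2% of nuclei at 5000 counts, and Vip in the smallest, with no nucleus in MGE or LGE replicate 1, where no peak was called, and 0.306% to 0.990% in the other samples. Calb2 ranged from 6.06% to 8.36%, Sst from 4.56% to 7.58%, Calb1 from 3.44% to 6.23%, Cck from 2.63% to 11.2%, with CTX replicate 1 highest, and Pvalb from 2.46% to 5.09%, with MGE replicate 1 highest. Over the Sst start site alone, the share was 0.229% to 0.857%, with both CGE samples at 0.705% and 0.857% above the MGE samples at 0.402% and 0.229%. The peak there covered 530 and 777 bp in CGE and 310 and 295 bp in MGE, and shares are not adjusted for that length. In endothelial-like nuclei of the 6 eminence samples the share was 8.17% to 15.2% for Calb2, 0.807% to 6.88% for Sst, 15.9% to 23.9% for Reep1, 1.15% to 8.16% for Cck, 1.62% to 4.42% for Calb1, 0% to 4.20% for Pvalb and 0% to 3.52% for Vip, so the shares of these windows overlapped that background. For Calb2 the endothelial-like share, from few nuclei, was above the 7.15% to 8.36% of all nuclei in every eminence sample.

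Nuclei of all samples were clustered without the regions of the 8 genes, and the 13 clusters were named from fixed marker genes. GABAergic neuron-like nuclei numbered 1517 to 2692 per eminence sample. In MGE most of them came from a cluster led by Lhx6, a factor of MGE-derived interneurons, and in LGE and CGE from 2 other clusters. Progenitor-like nuclei likewise came from 1 cluster in MGE, led by Nkx2-1, and from another in LGE and CGE. The latter held few nuclei of LGE replicate 1 (218 progenitor-like in all) and CGE replicate 1 (75), of which another 2990 and 1498 nuclei fell into a cluster left unnamed because it raised only 2 of 9 progenitor markers. Clusters thus divided partly by library. The names rest on part of each marker list. The MGE progenitor-like cluster raised 4 of 9 progenitor markers but also 3 of 8 GABAergic neuron markers. The progenitor-like cluster of LGE and CGE raised 4 of 9 progenitor markers and 0 GABAergic neuron ones. The Lhx6-led cluster raised 7 of 8 GABAergic neuron markers, and the other GABAergic neuron-like clusters 7 and 4. Levels within a class are CPM of that class's counts in gene windows and are given as a description with no test.

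**Figure D5:**
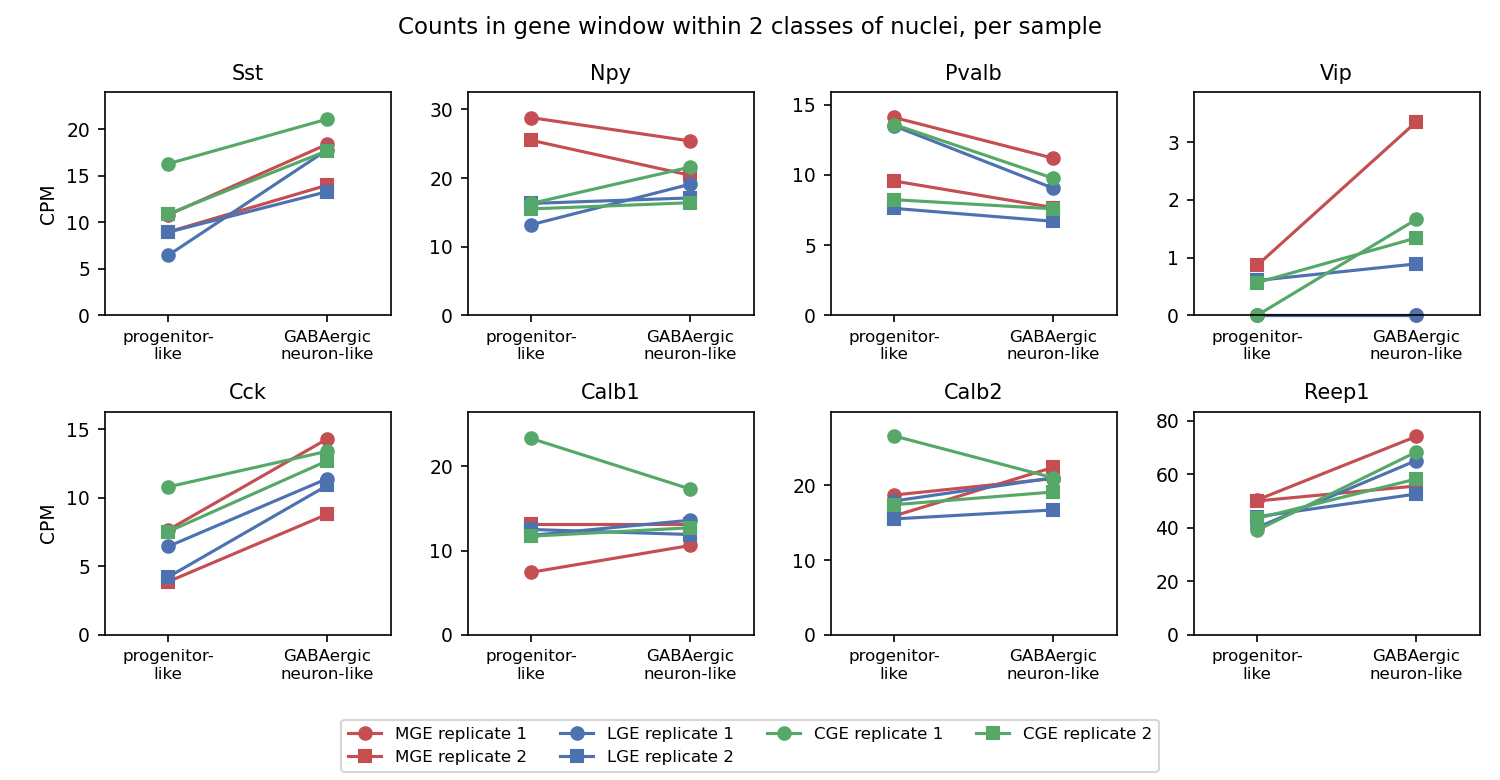
Counts in each gene's window (vertical axis, CPM within the class, from 0) in progenitor-like and GABAergic neuron-like nuclei of the 6 eminence samples, 1 line per sample. Sst, Cck and Reep1 lines rise in all 6 samples, Pvalb lines fall in all 6, and the 2 Npy lines of MGE fall while those of LGE and CGE rise. The Npy split was not kept with the finer clustering described in the text.

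Sst, Cck and Reep1 had more counts in GABAergic neuron-like than in progenitor-like nuclei in all 6 eminence samples. For Sst the GABAergic neuron-like nuclei held 18.4 and 14.0 CPM in MGE, 17.8 and 13.3 in LGE, and 21.1 and 17.7 in CGE, and the progenitor-like nuclei 10.8 and 8.96, 6.45 and 8.94, and 16.3 and 10.9. The neuronal values lay above the progenitor values of their own sample in each pair, with some overlap across samples. The 6.45 of LGE replicate 1 rested on 23 counts in 218 nuclei, and the finer clustering gave 12.3 CPM over 2435 progenitor-like nuclei there, against 17.9 in neuronal ones. For Cck the neuronal values were 14.3 and 8.80, 11.4 and 10.9, and 13.4 and 12.7, against 7.66 and 3.88, 6.45 and 4.22, and 10.8 and 7.53. For Reep1 they were 74.1 and 55.6, 65.1 and 52.6, and 68.3 and 58.2, against 50.4 and 50, 40.1 and 44.1, and 39.1 and 43.5, the 39.1 of CGE replicate 1 resting on 75 nuclei. With the finer clustering that progenitor-like value was 58.2 over 1137 nuclei, above the neuronal values of LGE replicate 2 (52.9), MGE replicate 2 (56.9) and CGE replicate 2 (57.3). Both Sst regions, the Cck start site and Reep1 regions 1, 14 and 22 showed this direction in 6 of 6 samples, and Cck region 4 in the 4 samples with a peak. At the Sst start site the neuronal values were 1.26 and 0.880 CPM in MGE, 1.19 and 2.01 in LGE, and 2.82 and 3.83 in CGE, with both CGE samples highest. These values, too, are not adjusted for the longer CGE peaks. With a finer clustering (Leiden resolution 1.0) Sst, Cck and Reep1 kept the direction in 6 of 6 samples and Calb2 joined them. How many of all gene windows show this direction in all 6 samples was not computed. Calb2 was higher still in the few endothelial-like nuclei of that clustering. They held 19.0 to 33.7 CPM in the eminences, above the neuronal value of each sample. Glutamatergic neuron-like nuclei of LGE and CGE (replicates 1 and 2 of each) held 26.5, 16.3, 23.4 and 14.9 CPM for Sst. For Cck they held 13.4, 15.4, 18.9 and 16.5, and for Reep1 89.8, 72.4, 92.2 and 60.7. Each was above the GABAergic neuron-like value of its sample, except Sst in CGE replicate 2. In MGE such nuclei numbered 19 and 60 and went both ways. With the finer clustering Sst lay below the GABAergic neuron-like value in LGE replicate 2 (11.9 against 12.6) and CGE replicate 2 (13.7 against 16.0). So did Reep1 in CGE replicate 2 (55.4 against 57.3), and Cck in LGE replicate 1 was nearly even (11.3 against 11.2). The other LGE and CGE values stayed above.

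Pvalb ran the other way at this clustering, higher in progenitor-like nuclei in 6 of 6 samples, with 14.1 and 9.57 CPM in MGE, 13.5 and 7.62 in LGE, and 13.6 and 8.24 in CGE, against 11.2 and 7.68, 9.06 and 6.70, and 9.77 and 7.59 in GABAergic neuron-like nuclei. With the finer clustering no gene was lower in neuronal nuclei in all 6. For Npy regions 1 and 2 went apart. The start site was slightly higher in neuronal nuclei in 6 of 6 samples, while region 1 upstream was higher in progenitor-like nuclei in all 5 samples with a peak. Region 1 held 4.54 and 5.33 CPM in MGE progenitor-like nuclei and 0.566 and 1.29 in MGE neuronal nuclei. In LGE replicate 2 and the 2 CGE samples the progenitor-like values were 2.07, 2.17 and 2.44 and the neuronal values 0.843, 0.583 and 0.751. The 2.17 of CGE replicate 1 rested on 4 counts in 75 nuclei, and the unnamed nuclei of that sample held 46 counts at 1.03 CPM. At 5000 counts, 1.99% and 2.42% of MGE progenitor-like nuclei had a count in region 1, 0.224% and 0.429% of MGE neuronal nuclei, and 0% and 1.19% of endothelial-like nuclei. Reep1 region 13 was likewise higher in progenitor-like nuclei of both MGE samples, with 4.03 and 5.28 against 2.88 and 1.56 CPM. Calb1 and the Calb2 start site went in both directions among samples.

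Within GABAergic neuron-like nuclei the eminences were compared again, in 1 class but across different clusters. MGE against LGE called 0 of 8 genes where edgeR called 0.487% of 17662 windows, MGE against CGE 0 of 8 where it called 0.283%, and LGE against CGE 0 of 8 where it called 0%. At an unadjusted p under 0.05 none of the 8 passed in any of the 3, against 11.5%, 11.2% and 3.70% of windows. DESeq2 was not run within the class. The Npy fold over LGE was 0.35 there (SE 0.21, 95% interval -0.13 to 0.83, adjusted p = 0.582) and the Sst fold 0.06 (SE 0.23, interval -0.46 to 0.59, adjusted p = 0.945). The Pvalb fold over LGE was 0.26 (SE 0.30, interval -0.42 to 0.95, adjusted p = 0.800).

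In CTX, 136 nuclei of replicate 1 and none of replicate 2 were GABAergic neuron-like, all but 1 of them in the Lhx6-led cluster. With the finer clustering 130 of 137 such nuclei fell instead into a cluster of low depth (median 0.508 times that of all nuclei) that Lhx6 did not lead. With 1 sample there was no test, and the median depth was 3550.5 counts against 22209.5 in the whole library. Intervals are exact Poisson intervals that take each count as independent. Most entries are even numbers and few nuclei hold the counts, so these intervals are too narrow. Reep1 held 148 CPM (123 to 176), Npy 40.2 (27.8 to 56.1) and Sst 36.6 (24.9 to 52), each above the value in GABAergic neuron-like nuclei of every eminence sample. The counts behind them were 125, 34 and 31, in 42, 13 and 14 nuclei. Peaks of CTX replicate 1 covered 11887 bp of the Reep1 window, against 5495 to 9178 in the eminence samples. For Sst they covered 3744 bp against 1878 to 2479, while for Npy 2858 bp lay within the range of 2507 to 4430. Pvalb at 7.09 CPM (2.60 to 15.4), Calb1 and Calb2 both at 14.2 (7.33 to 24.8) and Cck at 18.9 (10.8 to 30.7) had intervals that held the eminence values, except the 8.80 of Cck in MGE replicate 2.

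Related genes, in 4 lists, were set beside the 8. Among the eminences no listed gene was called by edgeR in any of the 3 contrasts. In CTX against the eminences, 3 of 11 neuropeptide receptor genes were higher and none lower, with a median log2 fold of 0.37 beside -0.02 over all windows, of which 5.93% were called. Cckar, a cholecystokinin receptor gene, held 41.8 and 72.8 CPM in CTX and 6.18 to 25.3 in the eminences, without overlap (log2 fold 2.10, SE 0.24, edgeR adjusted p = 0.00473, and 0.0519 with the covered-length offset). Sstr3, a somatostatin receptor gene, held 4.35 to 8.23 CPM in the eminences, 8.55 in CTX replicate 2 and a much higher 46.6 in replicate 1, the library richer in glutamatergic neuron-like nuclei (log2 fold 2.24, SE 0.47, edgeR adjusted p = 0.0334, 0.170 with the covered-length offset and 0.363 without CTX replicate 1). Leaving out any 1 of the 6 eminence samples also ended the Sstr3 call, with adjusted p of 0.0549 to 0.101. The third, Npy2r, named after its value was seen, held 28.6 and 43.0 against 12.2 to 22.4 (log2 fold 1.03, SE 0.23, edgeR adjusted p = 0.0433, 0.447 with the covered-length offset and 0.150 without CTX replicate 2). With a window of the gene body and 2 kb upstream its adjusted p was 0.877, and without any 1 eminence sample other than CGE replicate 1 it was 0.0597 to 0.113.

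Of 22 other interneuron subtype genes, 1 was higher and 1 lower in CTX, with a median log2 fold of 0.08, a share near that of all windows. Pthlh, encoding a parathyroid hormone-like peptide, held 24.8 and 38.2 CPM in CTX and 13.1 to 21.9 elsewhere (log2 fold 0.98, SE 0.22, edgeR adjusted p = 0.0451, 0.689 with the covered-length offset and 0.165 without CTX replicate 2). It was also lost without any 1 eminence sample but CGE replicate 1 (adjusted p 0.0506 to 0.114). Tac2, encoding the precursor of neurokinin B, was lower, at 12.8 and 7.13 against 17.1 to 26.5 (log2 fold -1.08, SE 0.24, edgeR adjusted p = 0.0419, 0.213 with the covered-length offset and 0.0588 without CTX replicate 2), and that call was lost without any 1 eminence sample (0.0648 to 0.101). Of 14 other calcium-binding protein genes, 1 was higher, Ncald, encoding neurocalcin delta, at 268 and 231 CPM against 95.2 to 146 (log2 fold 1.01, SE 0.13, edgeR adjusted p = 0.00752, 0.516 with the covered-length offset and 0.456 in windows of 1 kb around start sites). That share of the list, too, was near that of all windows. The median of that list was 0.40. Of the 5 other Reep family genes none was called and the median was -0.08.

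As a description over 8 samples, the gene whose log2 CPM most resembled each member's, among 18050 others tested that share no region with it, was Popdc2 for Sst (Pearson r = 0.990), Cacna2d4 for Npy (0.975), BC037034 for Pvalb (0.977), Wdr72 for Vip (0.962), Xirp1 for Cck (0.979), Olfr649 for Calb1 (0.994), Cdc123 for Calb2 (0.981) and Togaram2 for Reep1 (0.984). Popdc2, Cacna2d4 and Xirp1 lie on the same chromosome as their partner. These values share libraries and depth, and a best match among so many genes is high by construction.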

How the data were processed

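Single-nucleus ATAC-seq libraries of 8 wild-type samples were analysed. Per the labels and the submitters' processing notes, the authors processed reads with Cell Ranger ATAC 1.2.0 on GRCm38 (mm10), called peaks in each sample and deposited raw counts per peak and nucleus. Most entries are even numbers. How the barcodes had been filtered is unstated in the labels. No further filter or doublet caller was applied. Deposited motif counts were not used.

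Peaks were merged across samples where they overlapped. Counts were summed per sample over regions, and over gene windows of GENCODE M21 genes. Tests were edgeR 4.0.16 (glmQLFit, glmQLFTest, TMM, filterByExpr) in R 4.3.3 with Benjamini-Hochberg adjustment over all features and calls at 0.05. Contrasts among eminences used the 6 eminence samples, and CTX was set against the mean of the eminences in a fit of all 8. DESeq2 1.42.0 was an alternative, with those named in the closing section. The tests were tried on simulated counts. Nuclei were clustered on 68258 regions (TF-IDF, 30 LSI components, Leiden resolution 0.5), and a class needed at least 3 of its markers with a mean of 10 CPM and a log2 fold above 0.5. Promoters and genome sequence came from RefSeq, GRCm38.p6. Named genes were the 8 members, their start-site regions, the 2 largest called folds of each list and the most similar gene; other regions were chosen after their values were seen. The members and lists were chosen with earlier results of these data known. Coordinates are 1-based.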

Additional observations from a re-analysis of the deposited data

How the results depend on the processing

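Each group had 2 samples, and counts exist only at the peaks called in a sample. The count of called members stayed at 0 in every contrast with no filter on low counts, total library size, the covered-length offset, 1 model of all 8 samples and the 2 other gene windows, where these were run. For CTX against the eminences, DESeq2 called 3 of 8 genes (Npy, Cck, Reep1) and 2 of 16 regions, and leaving out 1 sample gave 0 to 1 genes (Cck, without CTX replicate 2) and 0 to 3 regions (Sst_2, Npy_3 and Reep1_22 without CTX replicate 2, and Reep1_11 and Reep1_17 without CTX replicate 1, and Reep1_13 without either CGE replicate). For regions, leaving out 1 sample gave 0 to 2 in MGE against LGE (Npy_2 and Cck_2 without MGE replicate 2, Reep1_13 without either CGE replicate) and 0 to 1 in MGE against CGE (Reep1_13 without CGE replicate 1). Testing regions with a peak in at least 2 samples called 1 (Cck_4) in each of these 2 contrasts and 1 (Cck_1) for CTX, where a group without a called peak enters as 0. Neither region had a peak in an MGE sample, so these calls rest at least in part on missing peaks and not on measured low counts. The share of all such regions that were called is not given here. Over all features, edgeR and DESeq2 called 7 and 644, 21 and 658, 0 and 87, and 1071 and 2855 gene windows, and 7269 and 11404, 6421 and 10693, 2 and 2754, and 10160 and 15780 regions (MGE against LGE, MGE against CGE, LGE against CGE, CTX against eminences). The cause of these changes was not tested. Of single log2 folds recomputed, 5 of 478 in gene windows, 14 of 848 in regions and 0 of 216 within GABAergic neuron-like nuclei passed the threshold, none with the opposite sign, and 52, 69 and 24 uncalled folds changed sign.

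Same-numbered samples did not all deviate together (correlations of -0.09 to 0.60 over 6 pairs of groups), 3 of them over 0.1, so pairing by number was not shown. A replicate block called 1 gene (Reep1, adjusted p = 0.0488) for CTX against the eminences and changed no other count of called members, while Sstr3, Npy2r and Pthlh lost their calls under it (adjusted p = 0.0878, 0.0697 and 0.0716). Over all windows it called 0 and 0 in place of 7 and 21 for MGE against LGE and CGE.

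The genes whose share of nuclei was highest in both MGE samples numbered 1 (Npy), and 1 to 2 when 1 sample was left out (Vip without MGE replicate 1, Pvalb without MGE replicate 2, each beside Npy). No such count was made over all genes. The finer clustering was added after seeing the data.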
